A study of Absidia caerulea with 2 samples.

Results

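Among the 45338 features of an Absidia transcriptome assembly, 123 had an average transcript length that differed by at least 1.1-fold between mycelium given a steroid and mycelium given its solvent. A feature is the unit that the assembler treats as 1 gene, and it can hold several assembled transcripts. The 123 were taken from the 2257 features that had 2 or more transcripts and an expected count of at least 100 in each library. Of those, 125 were past 1.1-fold, and 2 were left out because the counts summed over their cluster, the group of features that share an identifier stem, differed by 2-fold or more. Both were shorter with the steroid, at 2121.61 nt against 2536.39 nt in mock and at 2270.45 nt against 2838.64 nt in mock. The choice also required a TPM (abundance per length, with a common total for both libraries) under 600 in at least one library, which removed none. The members were chosen by the measured lengths and counts of both libraries, so these values are a description and no test was made on them.

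The RSA library came from wild-type mycelia of strain AS3.65 kept for 2 h in 30 ml of potassium phosphate buffer with 170 mg/L of 11-deoxycortisol 21-acetate dissolved in N,N-dimethylformamide. The mock library came from mycelia of the same strain kept in the same way with N,N-dimethylformamide alone, so both groups carry the solvent. The labels name the organism Absidia caerulea and A. coerulea, and the series text also A. orchidis. Each group had 1 library, with expected counts that sum to 8923379 with RSA and 8904820 in mock, so no value has a replicate error, no p-value is given, and a difference compares these libraries and not the conditions.

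Absidia is a filamentous fungus of the Mucorales used to turn 11-deoxycortisol and its esters into hydrocortisone, a step made by a cytochrome P450 with its reductase. In filamentous fungi 1 gene can give transcripts of different length through retained introns, alternative splice sites, and alternative starts or poly(A) sites. An assembly built without a genome can also place allelic copies, near-identical genes, joined neighbours and partial transcripts in 1 feature. The average length of a feature moves when abundance passes from a short transcript to a long one, and stays when transcripts of like length trade places. The files pair the identifiers with no gene name or sequence, and the length of each single transcript was not analysed here, so the 123 are described by length, transcript number and count.

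The average length was longer with RSA in 55 of the 123 features and shorter in 68. Past 1.1-fold were 5.54% of the 2257 features, with 2.44% longer and 3.10% shorter, the 2 left-out features included. Of all 2257 features, 1702 (75.4%) stayed within 1%, and 1108 were longer, 1092 were shorter and 57 were equal. The median difference between libraries was 339 nt in the 123 and 4.71 nt in the other 2134. Most shifts were small. Of the 123, 97 lay from 1.1-fold to under 1.3-fold, 17 from 1.3-fold to under 1.5-fold, 6 from 1.5-fold to under 2-fold, and 3 at 2-fold or more. Of the 9 at 1.5-fold or more, 8 were longer with RSA.

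**Figure D1:**
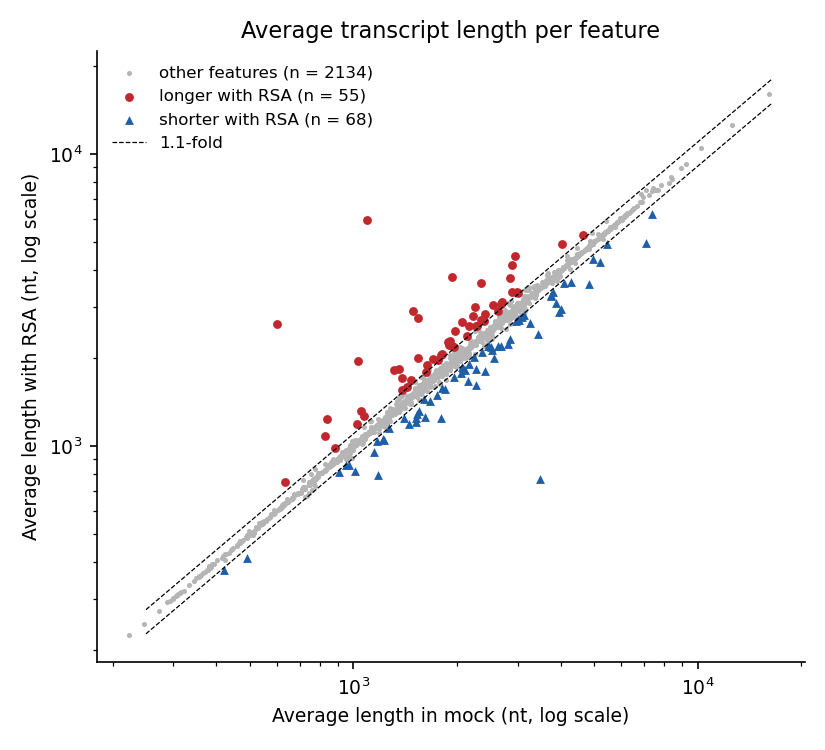
Average length with RSA (vertical axis) against mock (horizontal axis), both in nt on log scales, for the 2257 features that met the minimum of transcripts and counts. The 55 features longer with RSA lie above the upper 1.1-fold line and the 68 shorter ones below the lower line, and 3 points stand far from the diagonal.

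The threshold cuts a continuous range. Just inside it on the longer side were features of 2895.37 nt with RSA and 2624.43 nt in mock, of 1793.28 nt with RSA and 1625.33 nt in mock, and of 2382.68 nt with RSA and 2143.78 nt in mock, with folds of 1.1032 to 1.1114. Just outside it were 3 features at 1.0979- to 1.0997-fold, of which the one with the most reads had 3140.65 nt and 13640.52 counts with RSA, against 2860.72 nt and 8387.82 counts in mock. On the shorter side the 3 features inside had folds of 1.1037 to 1.1053 and the 3 outside 1.0986 to 1.0999. A further 94 of the 2257 features differed by 5% or more without reaching the threshold.

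The largest lengthening was in TRINITY_DN13084_c0_g1, a feature of 3 transcripts that is alone in its cluster. Its average length was 5941.64 nt with RSA and 1098.35 nt in mock, 5.41-fold longer. It had 114 expected counts with RSA and 113 in mock, a ratio of RSA over mock of 1.07 after scaling of the libraries with TMM (95% counting interval 0.821 to 1.41). The TPM values were 1.40 with RSA and 8.60 in mock. The reads were thus equal within counting error while the abundance calculated from them was lower with RSA, since TPM divides reads by a length.

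The second was TRINITY_DN11254_c0_g1, also with 3 transcripts and alone in its cluster, with an average length of 2626.16 nt with RSA and 601.16 nt in mock, 4.37-fold longer. It had 128 counts in each library and 3.79 TPM with RSA against 22.74 TPM in mock. No other feature was past 2-fold on the longer side. The next 4 longer features were 1.96-, 1.93-, 1.90- and 1.78-fold longer and had 6, 6, 15 and 35 transcripts. In the feature of 35 transcripts, the most of any of the 123, the average was 2740.97 nt with RSA and 1541.29 nt in mock. Its counts were 746 with RSA and 741 in mock.

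The largest shortening was in TRINITY_DN13036_c0_g1, of 3 transcripts and alone in its cluster. Its average length was 770.78 nt with RSA and 3485.59 nt in mock, 4.52-fold shorter. Here the counts differed as well, with 176 with RSA and 290 in mock, a scaled ratio of 0.646 (0.533 to 0.782), whereas TPM was 23.25 with RSA and 5.91 in mock. Counts were lower and TPM higher with RSA in this feature.

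The second, TRINITY_DN13083_c0_g2, had 3 transcripts and averaged 798.48 nt with RSA and 1182.47 nt in mock, 1.48-fold shorter. It had 164 counts and 21.28 TPM with RSA, against 143.2 counts and 10.18 TPM in mock. Its only cluster mate had 0 counts with RSA and 7.8 in mock. The next was a feature of 6 transcripts with 1243.45 nt with RSA and 1797.23 nt in mock, and with 115 counts in each library. Among the 12 largest shortenings, the feature with the longest average in both libraries had 2 transcripts and averaged 4945.13 nt with RSA and 7101.36 nt in mock, with 1574 counts with RSA and 1912 in mock.

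The 12 largest lengthenings were 1.35- to 5.41-fold and the 12 largest shortenings 1.29- to 4.52-fold. Among the 12 lengthenings, the counting interval of the scaled count ratio held equality in all 12, with ratios of 0.850 to 1.12. Among the 12 shortenings it held equality in 9, with ratios of 0.646 to 1.22. For comparison, it held equality in 72.4% of all members and in 61.9% of all features that met the minimum of transcripts and counts. The latter had more reads in the median. The choice of members also capped the count change of each cluster, so nothing is read from these shares. Of the lengthenings 9 features were alone in their cluster, and of the shortenings 6 were.

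**Figure D2:**
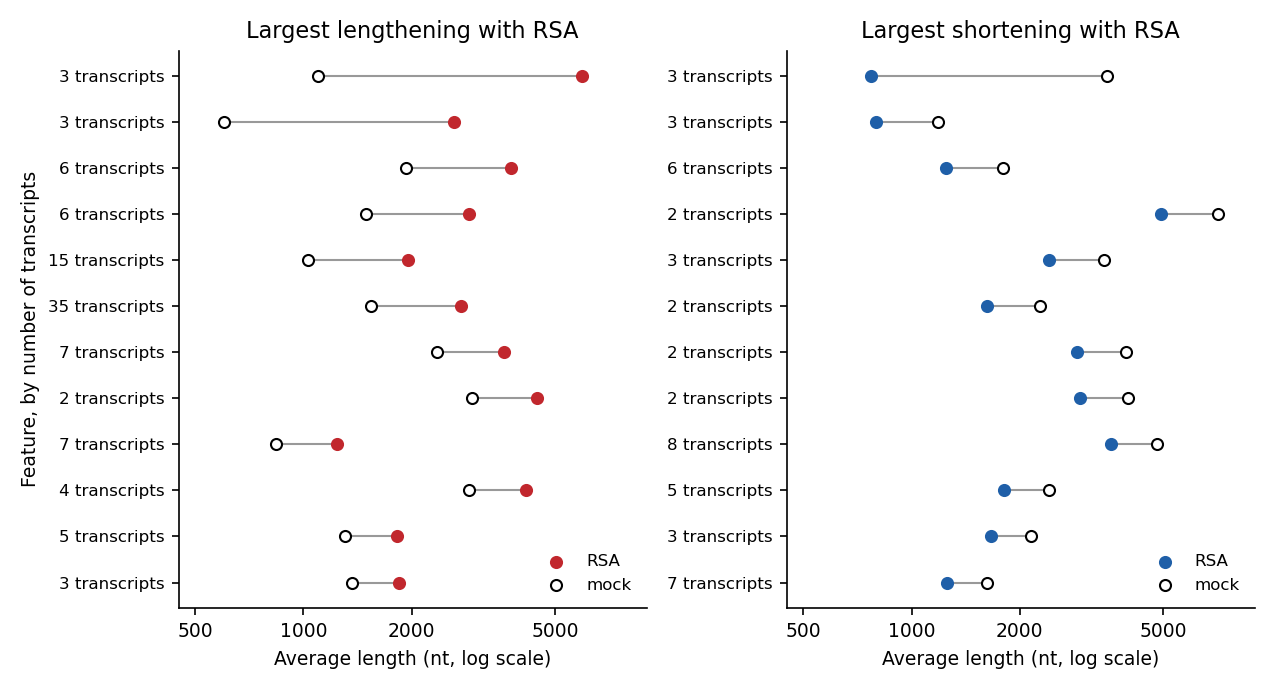
Average length in nt (log scale) with RSA (filled circles) and in mock (open circles) for the 12 features with the largest lengthening (left) and the 12 with the largest shortening (right), labelled by their number of transcripts. The top rows are 5.41-fold longer and 4.52-fold shorter with RSA, and the lowest rows are 1.35-fold longer and 1.29-fold shorter.

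A second length column shows how far short transcripts enter these averages. The effective length is the length less the span that a fragment must cover, and in features with 1 transcript of 1000 nt or more it was below the length by 275.46 nt with RSA and by 270.68 nt in mock, without exception. In shorter transcripts the reduction is smaller. A transcript of 201 nt, the shortest length in the tables, had an effective length of 1.38 nt with RSA and 1.81 nt in mock, one of 300 nt had 36.11 nt with RSA and 39.92 nt in mock, and one of 2000 nt had 1724.54 nt with RSA and 1729.32 nt in mock. Abundance is counts divided by effective length, so that 1 fragment on 201 nt adds as much abundance as 1250 fragments on 2000 nt with RSA and 955 in mock. Where the reduction of a feature falls short of the constant of its library by more than 0.05 nt, transcripts shorter than 473 nt with RSA, or 469 nt in mock, carry some of its abundance. This difference is called the shortfall here.

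A shortfall was present in 22 of the 123 features with RSA and in 27 in mock, against 5.36% and 5.45% of all 2257 features. In at least one library it was present in 35 of the 123 (28.5%) and in 103 of the other 2134 (4.83%). Both length columns come from the same average that chose the members, so the difference in these shares is described and not tested. Of the 55 features longer with RSA, 18 had the larger shortfall in mock and 0 with RSA. Of the 68 features shorter with RSA, 16 had the larger shortfall with RSA and 0 in mock. The larger shortfall thus lay in the library with the shorter average in each of these 34 features, and in the other 89 the shortfalls were within 0.05 nt of each other. In 13 of the longer features the shortfall was present in mock alone, and in 8 of the shorter ones with RSA alone. In 14 members it was present in both libraries, among them TRINITY_DN13083_c0_g2 with 13.02 nt with RSA and 10.11 nt in mock. For the same short transcripts the shortfall is slightly larger with RSA, 75.84 nt at 201 nt against 71.49 nt in mock. In the other 2134 features the shortfall was larger with RSA in 56 and larger in mock in 7. A larger shortfall with RSA was thus the more frequent one outside the 123. Within the 123 it was not, with 16 larger with RSA and 18 larger in mock.

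The shortfall went with the largest shifts. It was present in 3 of the 3 features past 2-fold, in 7 of the 9 at 1.5-fold or more, in 9 of the 17 from 1.3-fold to under 1.5-fold, and in 19 of the 97 below that. The median fold was 1.26 in the 35 features with a shortfall and 1.15 in the 88 without. In TRINITY_DN11254_c0_g1 it was 0.01 nt with RSA and 38.48 nt in mock, which requires at least 53.8% of the abundance in mock to be on transcripts under 469 nt if none is shorter than 201 nt. If transcripts of a single short length gave this value, they would hold between 0.338 and 3.18 of the 128 counts. In TRINITY_DN13084_c0_g1 it was 0.01 nt with RSA and 33.67 nt in mock, at least 47.1% of the abundance in mock, and a single short length would hold between 0.112 and 1.49 of the 113 counts. In TRINITY_DN13036_c0_g1 it was 31.12 nt with RSA and -0.01 nt in mock, at least 41.0% of the abundance with RSA, which a single short length would give with 0.189 to 4.25 of the 176 counts. Under that reading at most 4.25 counts lay on short transcripts in each of these 3 features, and the part of these counts in the shift was not tested.

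**Figure D3:**
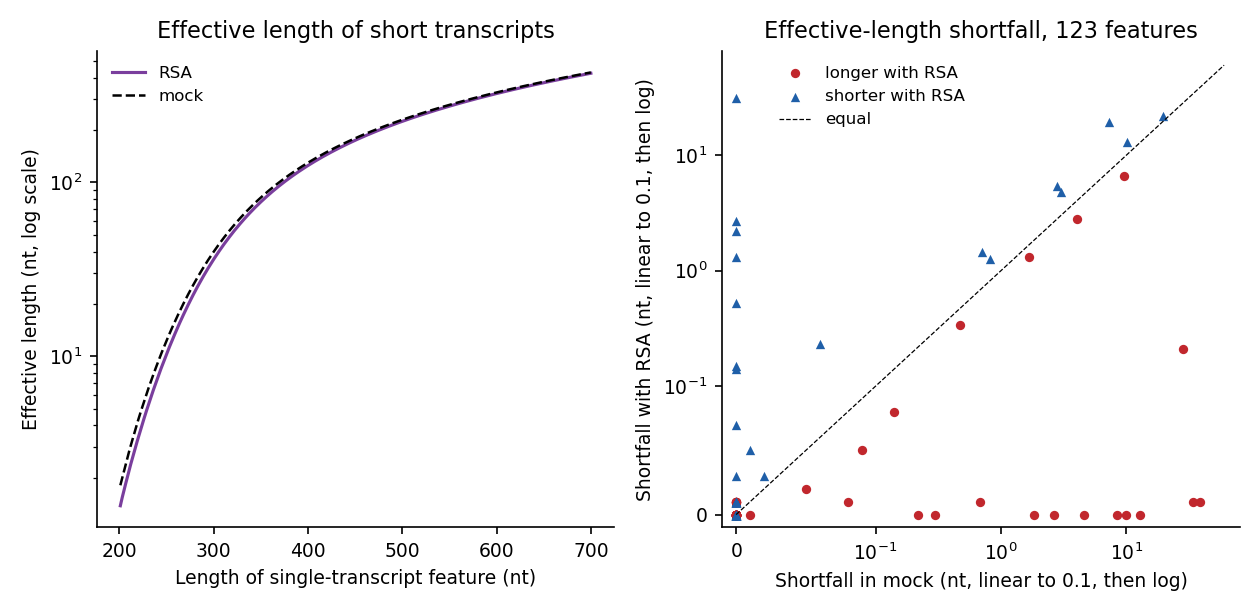
Left, effective length in nt (log scale) against length in nt for features with 1 transcript, with RSA (solid line) and in mock (dashed line); it drops to 1.38 nt with RSA and 1.81 nt in mock at 201 nt. Right, shortfall of the length reduction with RSA (vertical axis) against mock (horizontal axis) for the 123 features, in nt, linear up to 0.1 and log above, with values below 0 drawn at 0; apart from values within 0.05 nt of each other, features longer with RSA lie below the diagonal and those shorter with RSA above it.

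The other 88 features had no shortfall over 0.05 nt in either library. Of these, 36 were longer with RSA and 52 shorter. The largest lengthening among them was 1.53-fold, in a feature of 7 transcripts with 3609.70 nt and 130.1 counts with RSA, against 2353.54 nt and 146 counts in mock. The largest shortening was 1.45-fold, in the feature of 6 transcripts with 115 counts in each library. A feature of 2 transcripts and 2 features in its cluster averaged 2876.30 nt with RSA and 3943.51 nt in mock, with 431 counts with RSA and 452 in mock. A feature of 8 transcripts averaged 3587.38 nt with RSA and 4819.84 nt in mock, with 220 counts with RSA and 210 in mock.

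Whole-number averages point to features in which 1 transcript length held all of the abundance, although rounding to the second decimal can give a whole number too. Of the 123, 5 had a whole length with RSA and 2 in mock, all of them with 2 transcripts, against 6.03% of the 2257 features with RSA and 5.85% in mock. None was whole in both libraries. The choice left out every feature with the same whole length in both, so this absence and these shares are partly fixed by it. All 5 that were whole with RSA were longer with RSA, and both that were whole in mock were shorter with RSA, so that the whole value was the longer one each time. The largest of these shifts was in a feature with 4470 nt with RSA and 2939.64 nt in mock, on 160.06 counts with RSA and 175.53 in mock. Read in this way, its second and shorter transcript took at least 35.8% of the abundance in mock and none with RSA. A feature with 2948.35 nt with RSA and 4002 nt in mock would have had at least 27.7% of its abundance with RSA on the second transcript and none in mock. In the other 5 this least share was 11.2% to 17.4%. Each share takes the second transcript at 201 nt, the shortest length in the tables, and a longer one would hold more. In the library with the shorter average, the feature of 4470 nt had no shortfall and that of 4002 nt had 0.52 nt. In the other 5 it was 0.03 nt or less. A transcript of 201 nt at the least share would give a larger shortfall in each. Under this reading every share would thus be above its least value.

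The choice of members capped the count change of each cluster at 2-fold, and 68 of the 123 are alone in their cluster, so their count ratios are partly fixed by the choice and nothing is read from them. The median scaled count ratio was 1.02 and the range 0.631 to 3.41. The ratio lay within 1.1-fold in 57 features and within 1.5-fold in 116 (94.3%), against 95.7% of all 2257. The 95% counting interval held equality in 89 of the 123 (72.4%), and in 61.9% of the 2257, which had more reads. It lay above equality in 17 members and below it in 17. By a rule of at least 2-fold with an interval that excludes equality, 1 member was higher with RSA and 0 were lower. Among the 2257 features 1.42% were past that rule, 1.33% higher and 0.0886% lower. Among all 14962 features with 20 or more counts over both libraries 8.55% were past it, 4.27% higher and 4.28% lower.

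The 1 feature past the rule had 2 transcripts and averaged 1996.31 nt with RSA and 2559.71 nt in mock. It had 653.53 counts with RSA and 204.11 in mock, a scaled ratio of 3.41 (2.91 to 4.01). Its cluster mate had 333.47 counts with RSA and 406.89 in mock, a ratio of 0.871 (0.751 to 1.01), so the cluster as a whole was 1.72-fold higher (1.55 to 1.91). The counts of both were fractional and summed to whole numbers over the cluster, as when reads are divided between the 2 features. A feature of 4 transcripts came next among the higher ones, with 1283 counts with RSA and 790 in mock, a ratio of 1.73 (1.58 to 1.89). Its average length was 1314.15 nt with RSA and 1546.88 nt in mock.

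The TPM values moved against the length. TPM was lower with RSA in 49 of the 55 longer features, with a median ratio of 0.762, and higher in 57 of the 68 shorter features, with a median ratio of 1.28. Because TPM is proportional to counts over effective length, this follows from the way the members were chosen. At least 1.5-fold, TPM was higher in 15 members, all of them shorter with RSA, and lower in 14, all of them longer with RSA. Among the 2257 features 3.72% were that much higher and 1.37% that much lower. At 2-fold, 4 members were higher and 4 lower, against 1.46% and 0.222%. Of the 8, only the feature past the rule on counts also had a scaled count ratio over 2. In 40 of the 123 the count ratio and the TPM ratio pointed in opposite directions.

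**Figure D4:**
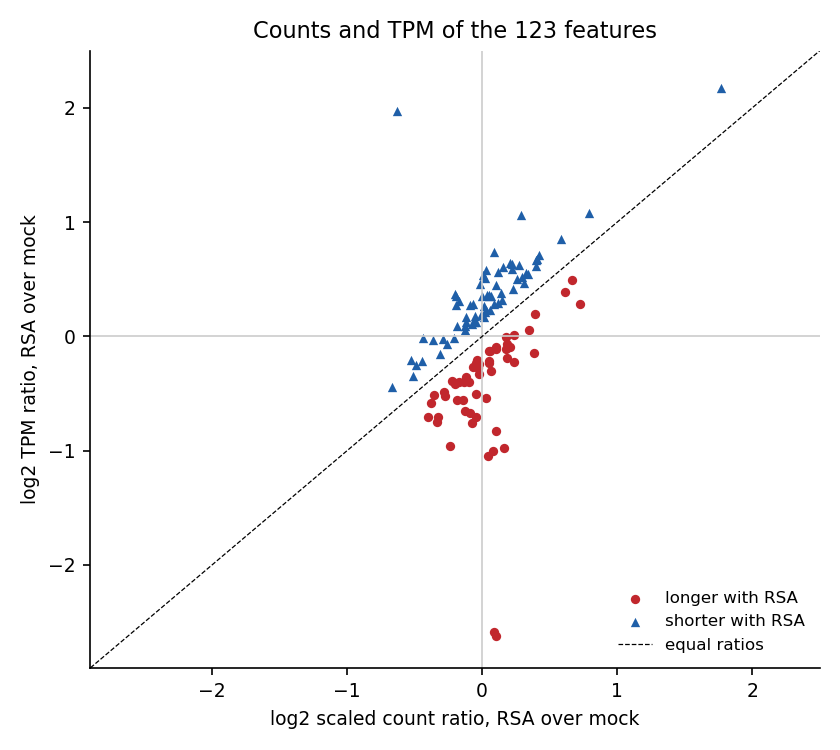
log2 of the TPM ratio (vertical axis) against log2 of the scaled count ratio (horizontal axis), RSA over mock, for the 55 features longer with RSA (circles) and the 68 shorter (triangles). Longer features lie below the line of equal ratios and shorter ones above it, and count ratios stay within 1.5-fold for 116 of the 123.

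Features with few reads made up most of the members. At 100 to under 200 counts in the library with fewer, 74 of 790 features were members (9.37%), 35 longer and 39 shorter. At 200 to under 500 counts 37 of 712 were (5.20%), at 500 to under 1000 counts 8 of 337 (2.37%), and at 1000 or more 4 of 418 (0.957%). The median member had 181 counts with RSA and 195.4 in mock, against 319 with RSA and 336.8 in mock for the other features. On the TPM scale, which is per length, the median level was 7.94 with RSA and 8.06 in mock for members, and 14.21 with RSA and 13.88 in mock for the others. The length carries no error in the files, so the part of low depth in these shifts was not tested.

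The members with the most reads are described here. They are not set against the named features, because those were chosen by the size of their shift. A feature of 17 transcripts had 2385 counts and 2823.74 nt with RSA, against 3071 counts and 2420.28 nt in mock, 1.17-fold longer. A feature of 4 transcripts had 1534 counts and 2685.05 nt with RSA, against 2322 counts and 2967.68 nt in mock, 1.105-fold shorter. Another of 4 transcripts had 1028.11 counts and 3609.22 nt with RSA, against 1310 counts and 4097.81 nt in mock. A feature of 3 transcripts with 950.96 counts and 2895.37 nt with RSA had 1293.26 counts and 2624.43 nt in mock. With the 1.44-fold shorter feature of 7101.36 nt in mock, these are the 5 with the highest summed counts.

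The share of members varied with the number of transcripts, which the choice used only as a minimum of 2. Of features with 2 transcripts 31 of 900 were members (3.44%), with 3 transcripts 26 of 317 (8.20%), with 4 transcripts 19 of 487 (3.90%), with 5 to 7 transcripts 29 of 334 (8.68%), and with 8 or more 18 of 219 (8.22%). The median member had 4 transcripts and the median of the others was 3. Whether these shares differ was not tested.

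**Figure D5:**
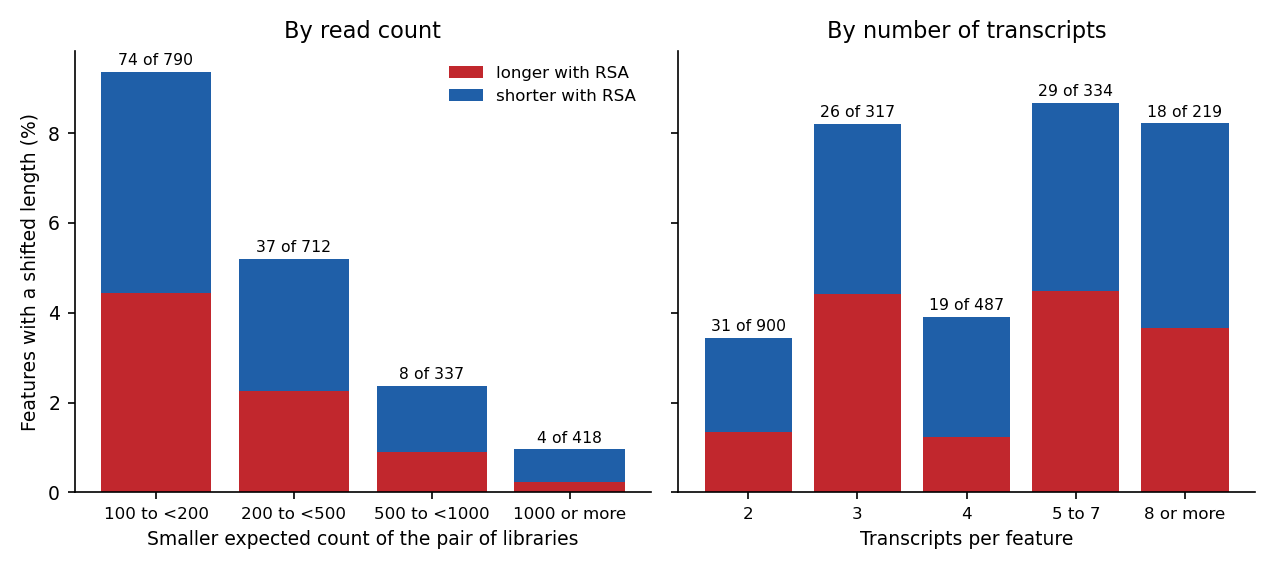
Percent of features with a shifted length (vertical axis) by the smaller expected count of the 2 libraries (left) and by the number of transcripts (right), with the part longer with RSA below and the part shorter above, and the number of members of all features in the class above each bar. The share is 9.37% in the lowest count class and 0.957% in the highest, and it is lower at 2 and at 4 transcripts than at 3.

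Of the 123 members, 92 (74.8%) had expected counts with no fractional part in both libraries, close to the 75.1% of all 2257 features. A whole count shows no division of reads with another feature, and division among transcripts within a feature does not show there. Alone in their cluster were 68 members (55.3%), 34 longer and 34 shorter, against 62.9% of all 2257. Of the 55 with cluster mates, 21 were longer and 34 shorter. No cluster held more than 1 member. The member in the biggest cluster, of 35 features, averaged 413.73 nt with RSA and 490.68 nt in mock, and the one in a cluster of 23 averaged 375.96 nt with RSA and 422.11 nt in mock. The members in 2 clusters of 20 features averaged 752.33 nt and 857.67 nt with RSA, against 634.54 nt and 953.03 nt in mock. Those in 2 clusters of 18 features averaged 1898.81 nt and 3064.08 nt with RSA, against 1642.14 nt and 2690.26 nt in mock.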

How the data were processed

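The data were 2 RNA-seq libraries, 1 with RSA and 1 mock, taken from the deposited gene-level tables. The submitters' processing notes name Trimmomatic, Bowtie2 and RSEM 1.2.0. Parameters of the assembly, and whether strand was kept, are not given in the sources. Per the file headers, the authors deposited an expected count (an estimated count that need not be whole), a length and an effective length in nt averaged over a feature's transcripts, a TPM and an FPKM value; FPKM was not analysed. TPM times effective length over count was constant within each library (1st to 99th percentile 99.87% to 100.17% of the median with RSA, 99.84% to 100.12% in mock), so the effective length is an average weighted by abundance.

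Expected counts were rounded for ratios and scaled in R 4.3.3 by the TMM method of edgeR 4.0.16, which set the RSA library to 0.939 of the mock library. Ratios have exact 95% Clopper-Pearson intervals, which cover counting error only. A length or count was called whole within 0.005. The count rule was run on simulated counts with known folds, and the length rule on lengths moved by set folds without noise. The length run checks that the rule is applied as stated. It does not measure how often low depth alone passes the threshold. Members were chosen with earlier results of these data known. The 2 longest and 2 shortest shifts are named, by rule, because identifiers carry no gene names; other features are described without identifiers, some of them chosen after their values were seen. Alternatives were other thresholds, scalings (library totals, DESeq2 1.42.0) and subsets. Calculations were made in Python 3.11.15 with scipy 1.17.1, pandas 2.3.3 and numpy 2.4.6, and figures with matplotlib 3.10.9.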

Additional observations from a re-analysis of the deposited data

How the results depend on the processing

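Of 67 alternative values, 36 stayed within 1.5-fold of the main count or within the counting interval, and 31 moved. The number of members was set mainly by the thresholds. A length threshold of 5% gave 215 members (101 longer and 114 shorter), one of 25% gave 35 (19 and 16) and one of 50% gave 9 (8 and 1), so that longer features outnumbered shorter ones at the 2 stricter thresholds. A count minimum of 20 gave 274 (123 and 151), 50 gave 199 (92 and 107) and 500 gave 12 (4 and 8). Features alone in their cluster gave 68 (34 and 34). Without features that have an effective-length shortfall, a step added after seeing the data, 36 longer and 52 shorter features were left. On scaled counts 1 member was higher and 0 were lower; TPM plus 1 gave 3 and 2, TPM plus 0.1 gave 4 and 3, a 1.5-fold rule gave 5 and 2, and the 500-count minimum gave 0 higher. A tolerance of 0.05 nt gave 15 whole lengths with RSA and 7 in mock. The thresholds and subsets change the counts by construction. With TPM in place of scaled counts, reads are also divided by the effective length, which moves with the length that chose the members. What the different scaling of TPM adds was not tested. Effective length in place of length gave 154 members, and rounded counts gave 124. No paired analysis was possible because each group had 1 library, and replicates could not be left out for the same reason. Of the 123 members, 74 had 100 to under 200 counts in the library with fewer, and what depth contributes was not tested.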

Other observations

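Even numbers of transcripts were common among the features of the assembly with 2 or more transcripts. Of all 45338 features, 40761 had 1 transcript. Another 2155 had 2 transcripts, 661 had 3, 851 had 4, 208 had 5, 261 had 6, 97 had 7 and 128 had 8. Among features with 2 to 9 transcripts, 63 of 110 members (57.3%) had an even number, against 1568 of 2038 other features (76.9%). This pattern was noticed after the values were seen, and it was not tested.

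Outside the 123, 54 of the 2257 features had a whole average length in both libraries, and in 1 of them the whole lengths differed. That feature, of 2 transcripts, averaged 1401 nt with RSA and 1393 nt in mock, a difference too small for the 1.1-fold limit. It had 534.33 counts with RSA and 116.32 in mock, a scaled ratio of 4.90 (95% counting interval 4.002 to 6.04), while the counts of its cluster of 2 features were 6140 with RSA and 6419 in mock, a ratio of 1.02 (0.983 to 1.06). It was singled out after its values were seen.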
